A study of Mus musculus with 15 samples.

Results

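Kit, Kitl, Ret, Gfra1, Gfra2, Gfra3, Artn and Gdnf are 8 genes of 2 receptor tyrosine kinase systems, and each was read by 1 probe on the arrays of this series. The probes were found through the accession that the array files give for each spot. All 8 passed the filter on dim probes and are among the 16058 named genes compared (23939 features with the unnamed probes). The group was chosen by values of these arrays: Kit and Gfra3 were selected on their large rise between control and Notch blockade, and the other genes are their partners, so changes in that comparison are described without a test.

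Small-intestinal crypts, the epithelial pits that hold the stem cells and their secretory and absorptive progeny, were isolated from mice aged 6 to 8 weeks. The control group had received an IgG antibody, the N1N2 group a single dose of blocking antibodies against Notch1 and Notch2, and the combination group (N1N2 plus Lrp6) the same Notch antibodies with 30 mg/kg of an antibody that binds Lrp6, a Wnt co-receptor. The labels give the Notch antibodies as 1 mg/mL, a concentration; strain, genotype and sex are not given in the sources used here. Collection followed treatment by 24 h. Each group had 5 arrays, called biological replicates; whether an array holds 1 mouse or a pool is not given. The red channel carried crypt RNA and the green one a universal mouse reference, so a level is the log2 ratio of crypt over reference and a change is a difference between 2 such levels. The ratios of different probes share no zero, so levels are compared between groups for 1 gene and not between genes.

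Kit is the receptor for stem cell factor, which Kitl encodes. It is known from mast cells, from the pacemaker cells of the gut wall (interstitial cells of Cajal) and, in the gut epithelium, from secretory cells near the crypt base. Ret is the signalling receptor of the GDNF family. Its ligands first bind a membrane-anchored co-receptor: GDNF is paired mainly with Gfra1, neurturin with Gfra2 and artemin, the product of Artn, with Gfra3. Ret signalling is best known for building the enteric nervous system, and both receptors feed the MAP kinase and PI3 kinase routes. Notch signalling in crypts holds back the secretory fate, and its blockade turns progenitors towards that fate.

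Of the 8 genes, 5 matched an entry in the RefSeq promoter table of build GRCm38.p6. The 250 bases before the annotated start are shown for Kit, the gene with an entry whose level moved most, and for Gdnf, whose level did not pass the test in either comparison tested. Both lie on the plus strand, at chr5:75574737-75574986 and chr15:7809798-7810047. Capitals mark matches to the E-box CANNTG, the general site of basic helix-loop-helix factors, a class that includes the secretory regulators Atoh1 and Neurog3.
Kit: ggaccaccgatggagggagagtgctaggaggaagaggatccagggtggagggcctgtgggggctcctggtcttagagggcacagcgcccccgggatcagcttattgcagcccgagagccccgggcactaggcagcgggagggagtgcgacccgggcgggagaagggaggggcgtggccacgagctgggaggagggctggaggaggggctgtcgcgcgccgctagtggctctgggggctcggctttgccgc
Gdnf: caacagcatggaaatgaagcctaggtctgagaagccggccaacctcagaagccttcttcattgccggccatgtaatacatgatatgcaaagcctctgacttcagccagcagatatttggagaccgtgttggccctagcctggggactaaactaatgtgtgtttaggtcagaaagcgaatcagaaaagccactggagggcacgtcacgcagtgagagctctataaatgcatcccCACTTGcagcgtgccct
The Kit window held no CANNTG and the Gdnf window held 1, starting 17 bases before the annotated start. Of the 32851 windows of this length in the table, 66.2% held at least 1 CANNTG on either strand. The Kit window also held neither CAGCTG, present in 13.0% of windows, nor CAGATG (14.4%), nor TGGGAA (21.6%), the core letters of the site of the Notch effector Rbpj. Both 6-letter E-boxes are also matches to CANNTG, and the counts say only whether these letters occur in the window.

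The arrays of the 3 groups differed in signal. The share of spots well above background in red was 75.8% ± 4.19 (SD, n = 5) in control, 73.9% ± 3.05 (SD, n = 5) in N1N2 and 64.8% ± 6.01 (SD, n = 5) in the combination group. The 15 arrays came from 6 slides, and 1 slide held 2 control and 2 N1N2 arrays. Every combination array was on a slide without other groups, so slide and treatment cannot be told apart in its comparisons. N1N2 replicate 3 was scanned on another day. The preparations carried epithelial genes: all 10 genes of the crypt epithelium list were well above background on all 15 arrays. Their mean level was between 4.84 and 5.58. Whether these genes tell crypt from other gut epithelium was not tested.

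**Figure D1:**
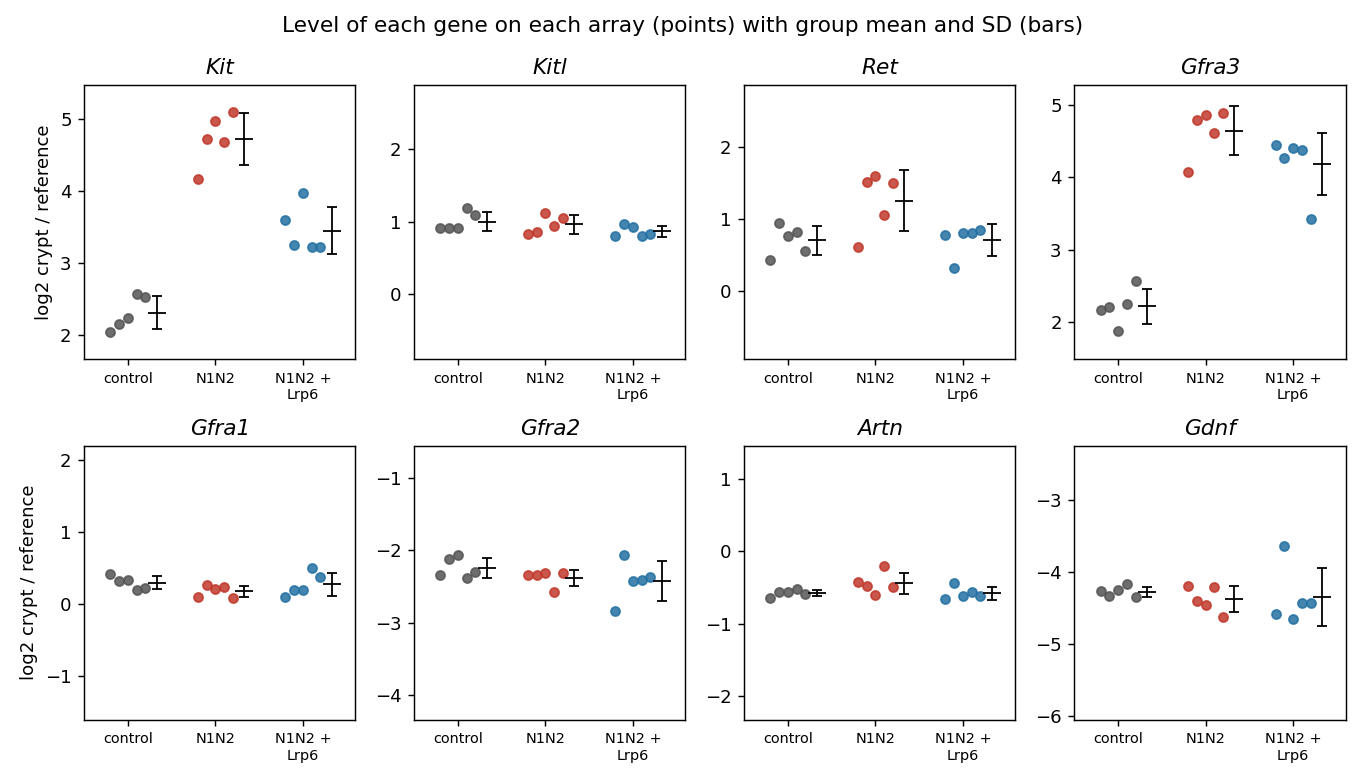
Level of each of the 8 genes (log2 crypt over reference, vertical axis) on each of the 15 arrays, by group; points are arrays in replicate order and bars give the group mean and SD. Each panel spans the same number of log2 units, and Kit and Gfra3 lie higher in both antibody groups than in control, while the other panels show overlapping groups.

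Kit was highest in N1N2, intermediate in the combination group and lowest in control, with no overlap between any 2 groups. Its levels in control crypts were 2.05, 2.16, 2.24, 2.57 and 2.53 in replicates 1 to 5. After N1N2 they were 4.16, 4.72, 4.97, 4.68 and 5.09. In the combination group they were 3.59, 3.24, 3.97, 3.22 and 3.22. The lowest N1N2 array thus lay above the highest combination array, and the lowest combination array above the highest control array. The means were 2.31 ± 0.23 (SD, n = 5), 4.72 ± 0.36 (SD, n = 5) and 3.45 ± 0.33 (SD, n = 5). In bulk crypts, a change in the number of cells that express a gene and a change in RNA per cell cannot be told apart.

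The red signal behind the Kit ratios was well above background on all 15 arrays. It ran from 505 to 734 intensity units in control, from 1525 to 4113 in N1N2 and from 712 to 2277 in the combination group, against a local background of at most 33 units. The green reference signal was only 38 to 66 units and was well above background on 2 of 15 arrays. The ratio of Kit therefore has a denominator near background, with the offset of 50 units added to both channels setting much of it.

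The N1N2 mean of Kit exceeded the control mean by 2.41 on the log2 scale, or 5.33-fold, rank 6 of the rises of the 23939 features. Kit and Gfra3 were 2 of the 8 genes whose control and N1N2 arrays did not overlap, as was the case for 12% of all features; 11.7% of all features passed the test at an adjusted p of 0.05 in this comparison. Nothing is read from these counts, since this comparison chose the genes. On the slide that held 2 arrays of each of these groups, the difference was 1.89 for Kit and 2.03 for Gfra3. The slide as a block gives the same values by construction, since no other slide held both groups.

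Kit was lower with the Lrp6 antibody than with the Notch antibodies alone. It fell by 1.27 ± 0.18 (SE), 2.42-fold, with an adjusted p of 0.000595 in the limma fit of all 15 arrays. All 5 combination arrays were below all 5 N1N2 arrays, and the fall ranked 35 among all features. Against control, Kit in the combination group was higher by 1.14 ± 0.18 (SE), 2.20-fold, with an adjusted p of 0.0117 in the same fit and all 5 arrays above all control arrays. These 2 comparisons share the N1N2 and the control arrays, respectively, with the comparison that chose the gene. With the scanner's own log ratio, the fall was -0.95 (adjusted p = 0.14) and the rise 1.91 (adjusted p = 0.0553); keeping poor-quality spots made the fall -1.04 (adjusted p = 0.0684), and median centring left the rise at 1.13 (adjusted p = 0.0521). The adjusted p of the fall ran from 2.29e-05 to 0.14 over the 29 alternatives, and that of the rise from 0.000106 to 0.0553. Both lowest values came from the slide as a random block, fitted with a negative within-slide correlation (-0.18).

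Kitl, which encodes the ligand of Kit, gave no call in either tested comparison. Its levels were 0.91, 0.91, 0.91, 1.19 and 1.09 in control crypts. N1N2 gave 0.83, 0.86, 1.12, 0.94 and 1.06, and the combination gave 0.80, 0.97, 0.92, 0.80 and 0.83. The 3 groups overlapped throughout, and all 15 arrays lay within 0.80 to 1.19. The combination differed from N1N2 by -0.09 (95% interval -0.26 to 0.08, adjusted p = 0.505 in the limma fit) and from control by -0.13 (95% interval -0.30 to 0.04, adjusted p = 0.499). The N1N2 mean differed from the control mean by -0.04.

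Gfra3, the co-receptor of artemin, was higher in both antibody groups than in control. Control crypts gave 2.16, 2.21, 1.88, 2.24 and 2.56. The N1N2 arrays stood at 4.07, 4.79, 4.87, 4.61 and 4.89. The combination arrays stood at 4.46, 4.27, 4.41, 4.37 and 3.43. Every array of both antibody groups lay above every control array, and the N1N2 and combination arrays overlapped. The means were 2.21 ± 0.24 (SD, n = 5), 4.65 ± 0.34 (SD, n = 5) and 4.19 ± 0.43 (SD, n = 5).

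Between control and N1N2, Gfra3 differed by 2.44, or 5.41-fold, rank 4 among all features. Its red signal was 834 to 1163 units in control, 2185 to 6380 in N1N2 and 1837 to 5369 in the combination group. Unlike that of Kit, its reference signal was well above background on all 15 arrays. In the combination group Gfra3 was 1.98 ± 0.20 (SE) above control, 3.94-fold, with an adjusted p of 0.000342 in the limma fit, and this call held under all 29 alternatives (adjusted p from 3.25e-06, with the slide as a random block, to 0.0119). That rise ranked 3 of 23939. Its test shares the control arrays with the comparison that chose the gene. None of the alternatives separates slide from treatment, since every combination array was on a slide without other groups.

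The test did not pass for a fall of Gfra3 between N1N2 and the combination: the change was -0.46 ± 0.20 (SE), with a 95% interval of -0.88 to -0.04 before adjustment and an adjusted p of 0.136. Over the 29 alternatives its adjusted p ran from 0.0392 to 0.887, and 1 array decided the call. Without N1N2 replicate 1, the lowest of its group, the change was -0.60 (adjusted p = 0.0392). Without combination replicate 5, the lowest of its group and the sole array of its slide, it was -0.27 (adjusted p = 0.292).

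In the combination against N1N2, 2 of the 8 genes passed the test, Kit and Ret, both lower, where 7.26% of all features were lower and 16.7% changed in either direction. In the combination against control, 2 of 8 passed, Kit and Gfra3, both higher, where 0.221% of all features were higher and 0.376% changed. The median change of the 8 genes was -0.11 and -0.01 in these comparisons, beside -0.00095 and 0.01 for all features. The choice of genes by an overlapping comparison bears on both counts.

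**Figure D2:**
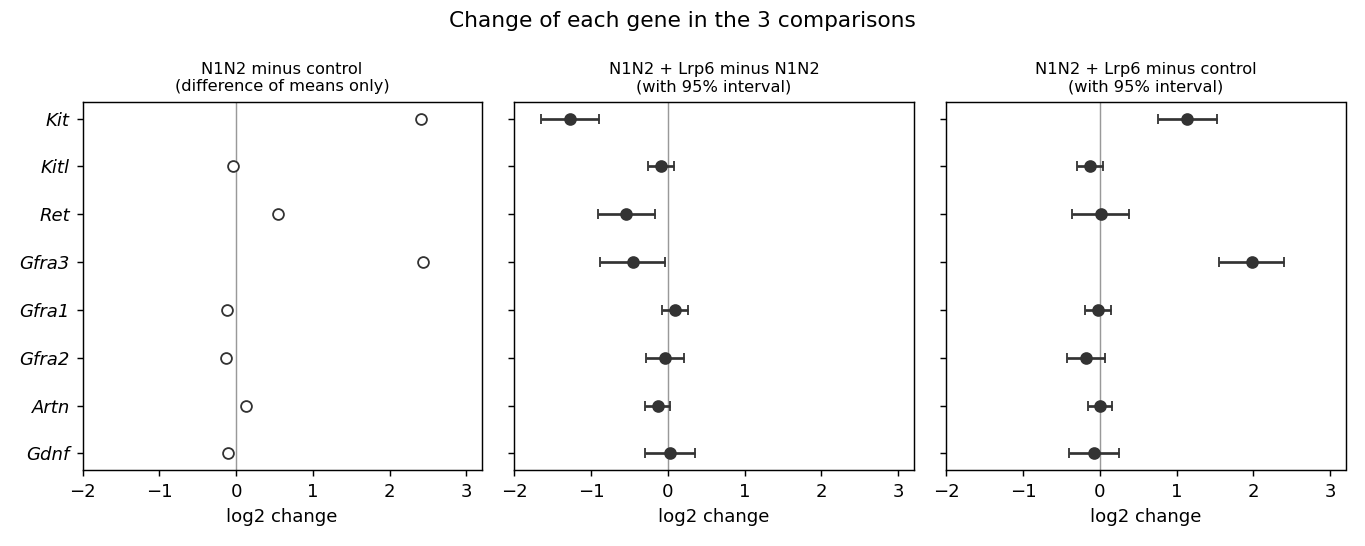
Log2 change of each gene (horizontal axis) in the 3 comparisons; filled points carry the 95% interval of the limma fit before adjustment, and the open points of the comparison that chose the genes are differences of means without a test. Kit lies at -1.27 in the middle panel and Gfra3 at 1.98 in the right panel, and the 5 genes Kitl, Gfra1, Gfra2, Artn and Gdnf have intervals that include 0 in both tested panels.

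The gap between Gfra3 and Kit is given for each array, as a description. The within-array difference, Gfra3 level minus Kit level, was 0.11, 0.05, -0.37, -0.33 and 0.03 in control and -0.09, 0.07, -0.10, -0.07 and -0.20 in N1N2. In the combination group it was 0.87, 1.03, 0.45, 1.15 and 0.20, above every array of the other groups. Only the change of this difference between groups has a meaning, since its zero depends on the 2 probes. Its mean was 0.82 higher in the combination than in N1N2 and 0.84 higher than in control. This difference was chosen after its values were seen, from genes chosen on these arrays, so it has no test. With the scanner's own log ratio the same differences were 0.85 and 0.59, and the combination arrays no longer lay wholly above either other group.

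**Figure D3:**
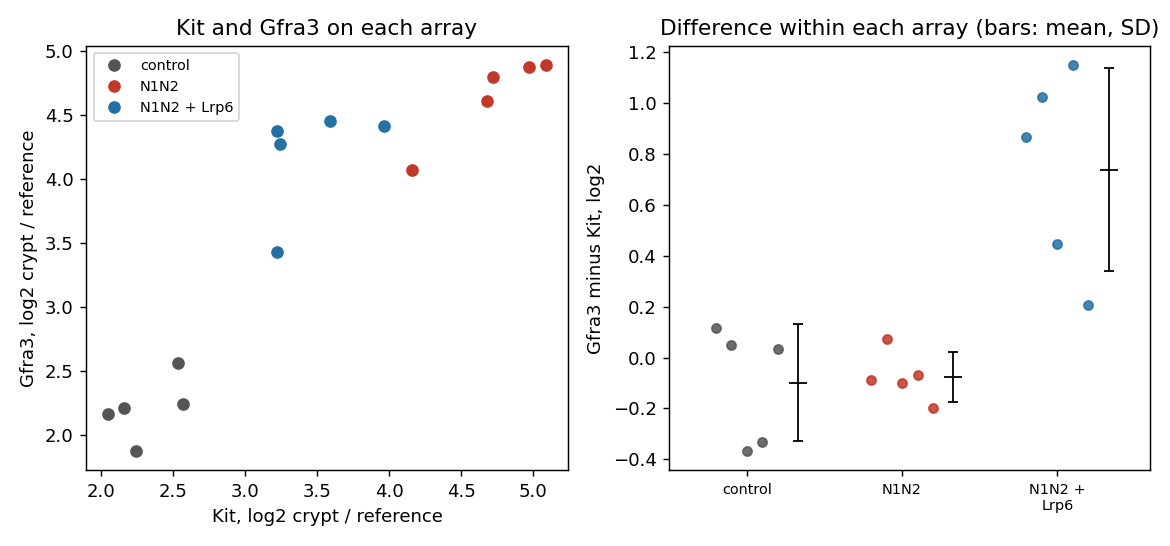
Left, level of Gfra3 (vertical axis) against level of Kit (horizontal axis), both log2 crypt over reference, for the 15 arrays coloured by group; right, the Gfra3 level minus the Kit level of each array, with group mean and SD. The 5 combination arrays have lower Kit than the N1N2 arrays, and their within-array difference runs from 0.20 to 1.15, above the highest value of the other groups (0.11).

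Ret, the signalling receptor shared by the GDNF family, had its highest mean in N1N2. Control crypts gave levels of 0.43, 0.94, 0.77, 0.81 and 0.55. In N1N2 the levels were 0.61, 1.51, 1.60, 1.05 and 1.49. In the combination they were 0.78, 0.31, 0.80, 0.81 and 0.84. Of the N1N2 arrays, 4 lay above all others, and N1N2 replicate 1 lay inside the range of control. The means were 0.70 ± 0.21 (SD, n = 5), 1.25 ± 0.42 (SD, n = 5) and 0.71 ± 0.22 (SD, n = 5).

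The red signal of Ret was 74 to 291 units, well above background on all 15 arrays, and its reference signal was well above background on none. The N1N2 mean was 0.55 above the control mean, 1.47-fold, and 0.38 within the shared slide. Ret fell by 0.54 ± 0.17 (SE), 1.46-fold, between N1N2 and the combination, with an adjusted p of 0.0432 in the limma fit; the groups overlapped through N1N2 replicate 1. This call was lost in 20 of 29 alternatives, among them leaving out any 1 combination array or any 1 N1N2 array other than replicate 1, with adjusted p from 0.00514 to 0.241. The combination did not differ detectably from control: the difference was 0.01, with a 95% interval of -0.36 to 0.38 (adjusted p = 0.988).

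The co-receptors Gfra1 and Gfra2 gave no call in either tested comparison. Gfra1 levels ran from 0.20 to 0.41 in control, from 0.09 to 0.26 in N1N2 and from 0.09 to 0.50 in the combination. The Gfra1 change was 0.09 (95% interval -0.08 to 0.26, adjusted p = 0.51 in the limma fit) from N1N2 to the combination and -0.03 (95% interval -0.20 to 0.15, adjusted p = 0.922) against control. Gfra2 levels ran from -2.38 to -2.06 in control, from -2.58 to -2.31 in N1N2 and from -2.84 to -2.06 in the combination, so its spread was widest in the last group. The Gfra2 change was -0.04 (95% interval -0.29 to 0.21, adjusted p = 0.874) and -0.18 (95% interval -0.42 to 0.07, adjusted p = 0.55). For either gene the intervals leave no room for a change as large as that of Gfra3 against control. Gfra1 was dim, with red signals of 98 to 104.5 units in N1N2 and a reference well above background on 11 of 15 arrays. Its change from N1N2 to the combination reached 0.41 among the alternatives, beyond the interval given.

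The 2 ligand genes were near the lower end of the measurable range. Artn, the ligand that binds Gfra3, was well above background on 5 control, 5 N1N2 and 2 combination arrays. Its levels ran from -0.65 to -0.52, from -0.60 to -0.21 and from -0.66 to -0.43, with red signals of 66 to 103 units. The Artn change was -0.14 (95% interval -0.29 to 0.02, adjusted p = 0.247 in the limma fit) on adding the Lrp6 antibody and -0.003 (95% interval -0.16 to 0.15, adjusted p = 0.991) against control. With the scanner's own log ratio the first of these was -0.68 and passed (adjusted p = 0.0224); this was 1 of 28 alternatives, over which the adjusted p ran from 0.0224 to 0.543.

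Gdnf, the ligand of Gfra1, was well above background on 5 control, 3 N1N2 and 1 combination arrays. Its levels were from -4.35 to -4.17, from -4.63 to -4.19 and from -4.65 to -3.65, with red signals of 49 to 102 units. The Gdnf change was 0.03 (95% interval -0.30 to 0.35, adjusted p = 0.936) and -0.07 (95% interval -0.40 to 0.25, adjusted p = 0.872). In the combination group most arrays give only a bound for either ligand.

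Other genes of both pathways were followed by lists. Of 26 further genes of the GDNF family and its signalling, 21 passed the filter. Between control and N1N2, 2 of these 21 rose and 1 fell in the limma fit, 3 of 21 beside 11.7% of all features, with a median change of 0.0017 beside 0.0017 for all features. The risers were Etv5, a transcription factor induced by MAP kinase signalling, by 0.87 ± 0.12 (SE, adjusted p = 0.000363), and Dusp6, a MAP kinase phosphatase induced by the same route, by 0.64 ± 0.10 (SE, adjusted p = 0.000734). Related genes of the list gave no call: Etv4 (-0.07, adjusted p = 0.768), Spry1 (-0.23, adjusted p = 0.362) and Spry2 (0.09, adjusted p = 0.921) in the same fit. Spry4 did not pass the filter. The activity of the route was not tested. Gas1, a cell-surface relative of the Gfra co-receptors, fell by 0.78 ± 0.21 (SE, adjusted p = 0.0237) on its brightest probe, while its other 2 probes differed by -0.04 and -0.19, and the call was lost in 10 of 31 alternatives.

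Both risers were followed into the combination group, without a test of the difference between them. The Dusp6 level was 0.06 ± 0.08 (SD, n = 5) in control, 0.70 ± 0.16 (SD, n = 5) in N1N2 and 0.04 ± 0.19 (SD, n = 5) in the combination, and its fall of 0.66 ± 0.10 (SE) on adding the Lrp6 antibody passed the test (adjusted p = 0.000776). With median centring its rise was 0.32 (adjusted p = 0.199) and its fall -0.25 (adjusted p = 0.339), so both calls were lost. It was the sole gene of the 21 to pass in that comparison, where 16.7% of all features changed. The Etv5 level was -3.39 ± 0.09 (SD, n = 5) in control, -2.52 ± 0.18 (SD, n = 5) in N1N2 and -2.51 ± 0.29 (SD, n = 5) in the combination. Against control, Etv5 was the sole gene of the 21 to pass in the combination, where 0.376% of all features changed. It was higher by 0.88 ± 0.12 (SE, adjusted p = 0.00486), a call lost with median centring (0.89, adjusted p = 0.0591). With the slide as a block, the N1N2 rises of Dusp6 (0.66, adjusted p = 0.17) and Etv5 (0.75, adjusted p = 0.119) did not pass.

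Among 22 genes of Kit signalling, all 22 passed the filter. Between control and N1N2 11.7% of all features were called in either direction, and 1 of the 22 genes rose. That gene was Socs1, a suppressor of cytokine receptor signalling, with a change of 0.63 ± 0.15 (SE, adjusted p = 0.0126 in the limma fit), lost with median centring (0.44, adjusted p = 0.171) and with the slide as a block (0.42, adjusted p = 0.27). None of the 22 passed in the other comparisons, where their median change was -0.02 for the combination against N1N2 and -0.12 against control. The 4 other class III receptor tyrosine kinases, the family to which Kit belongs, gave no call in any of the 3 comparisons.

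Markers of cells known to carry Kit or Ret were followed on the same arrays. Of 12 listed mast cell genes 8 passed the filter, and none of these was called in any of the 3 comparisons. Their mean level was 0.91 to 1.48 in control, 1.04 to 1.76 in N1N2 and 0.83 to 1.85 in the combination, with overlap between the groups. Mast cell proteases were present in the crypt preparations: Mcpt1, Mcpt2 and Mcpt4 were well above background on all 15 arrays, and Cma1 on 1. The 4 measured genes of interstitial cells of Cajal gave no call either, with a mean level of -2.08 to -1.61, -2.01 to -1.77 and -2.59 to -1.96, and neither did 9 genes of innate lymphoid cells. The part of any of these cells in the Kit values was not tested.

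For Ret, of 12 enteric neuron genes 7 passed the filter, and the defining gene Uchl1 was well above background on no array. The mean level of the 7 was 0.23 to 0.45 in control, 0.56 to 0.79 in N1N2 and 0.35 to 0.77 in the combination. The control and N1N2 means did not overlap, and 1 of the 7 genes passed the test, beside 11.7% of all features. It was Nefm, a neurofilament well above background on 7 of 15 arrays. Nefm rose by 0.45 ± 0.10 (SE, adjusted p = 0.0123 in the limma fit) and did not pass with the slide as a block (0.32, adjusted p = 0.464). Its control levels spanned only 0.22 to 0.23 (SD 0.0061, n = 5), a floor. With so few arrays above background it can have passed the filter in only 1 group. Nothing is therefore read from its p or from the count that rests on it. N1N2 replicate 1 had the lowest Ret and the highest neuron mean of its group, which 1 array cannot explain. The part of neuron genes in the Ret values was not tested. Enteric glia genes gave no call among 5, and S100b and Foxd3 were well above background on no array. Stromal and muscle genes were lower in the combination than in N1N2, 4 of 14 passing the test, where 7.26% of all features were lower. Their mean level was -4.23 to -3.41 against -3.41 to -3.05. Between control and N1N2, 2 of these 14 fell, the matrix genes Dcn (-1.38) and Lum (-1.27). So did 3 of 7 genes of T cells and intraepithelial lymphocytes, whose median change was -0.64. In this comparison 11.7% of all features were called in either direction. The control mean of the stromal list was -3.25 to -2.48, and the mean of the T cell list was 3.04 to 3.73 in control, 2.39 to 3.25 in N1N2 and 2.69 to 3.17 in the combination. The part of these shifts in the values of Kit, Gfra3 and Ret was not tested.

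The group means of secretory progenitor genes had the order seen for Kit, an order not particular to them. Means of other lists had it too. In control, N1N2 and combination these were 5.16, 6.02 and 5.47 for goblet cells and 0.33, 0.62 and 0.47 for enteric neurons. They were 2.43, 2.94 and 2.66 for deep secretory cells. Over all features, 11.7% were called after N1N2 in either direction. On adding the Lrp6 antibody 7.26% were lower, and 0.221% were above control in the combination. Of 11 goblet cell genes, 5 rose with N1N2, 4 fell on adding the Lrp6 antibody and 2 were above control in the combination. Of 11 secretory progenitor genes, 10 rose between control and N1N2, 7 fell on adding the Lrp6 antibody and 6 were above control in the combination. The median change was 1.81, -0.92 and 0.95. Their mean level was 1.68 to 1.88 in control, 3.10 to 3.98 in N1N2 and 2.59 to 3.23 in the combination. Unlike for Kit, the N1N2 and combination arrays overlapped. N1N2 replicate 1 was the lowest of its group for this list, at 3.10 against 3.63 to 3.98, and also for Kit, Kitl, Ret and Gfra3. The same array was the lowest of its group for the crypt stem cell (1.58), tuft cell (0.045) and Paneth cell (3.40) means. Its low place was thus not particular to the progenitor list. That is 1 array, and the part of secretory progenitors in the values of these genes was not tested.

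Of 7 genes listed for deep secretory cells of the crypt base, 2 rose with N1N2 and both fell with the Lrp6 antibody. Over all features, 11.7% were called in the first comparison and 7.26% were lower in the second. The 2 genes were the Notch ligand genes Dll1 and Dll4, both of which are also in the progenitor list. Dll1 changed by 1.81, then by -1.06, and Dll4 by 1.38, then by -0.95. The rise of Dll4 did not pass with the slide as a block (1.15, adjusted p = 0.0765), and its fall was lost with the scanner's own log ratio (-0.35, adjusted p = 0.359) and with poor-quality spots kept (-0.76, adjusted p = 0.0804). None of the 5 genes of this list outside the progenitor list was called: Reg4 changed by -0.26, then by 0.42, Cd44 by -0.17, then by 0.23, and Cd24a by 0.43, then by 0.05. Against control, Dll1 was the 1 gene of the 7 to pass in the combination, where 0.221% of all features were higher. It was higher by 0.75, and this call was lost with median centring (0.70, adjusted p = 0.0732).

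**Figure D4:**
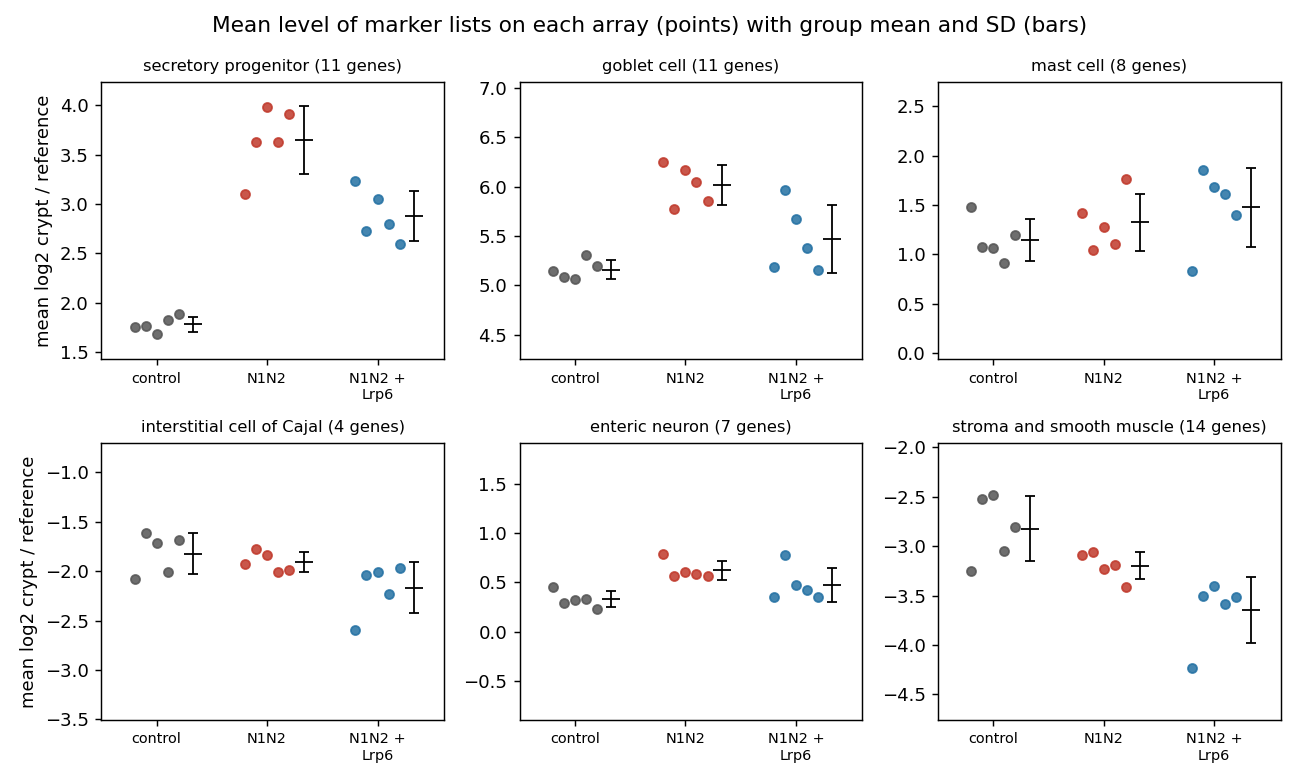
Mean level of 6 marker lists (mean log2 crypt over reference of the genes that passed the filter, vertical axis) on each array, with group mean and SD; every panel spans the same number of log2 units. The secretory progenitor means separate control (1.68 to 1.88) from N1N2 (3.10 to 3.98), and the mast cell means overlap in all 3 groups.

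The genes with the levels most like those of Kit, Gfra3 and Ret were sought among 15820 named genes with values on all 15 arrays. Likeness was the root mean square difference between the 2 profiles after each was centred on its mean, so it includes the comparison that chose the genes. Nearest to Kit was Cbfa2t3, a co-repressor, at 0.24 log2 units, where the Kit profile itself has a root mean square of 1.02. It was followed by Rfx6, a transcription factor of endocrine progenitors (0.24), the co-repressor subunit Rcor2 (0.27), the RNA-binding protein gene Celf3 (0.29) and the lipoprotein receptor gene Vldlr (0.30). Cbfa2t3 stood at 1.06, 3.58 and 2.15 in control, N1N2 and combination on this probe, while its dimmer second probe differed by -0.11 between control and N1N2.

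Nearest to Gfra3 were the chemokine gene Ccl9 (0.30), Selenom, which encodes a selenoprotein of the endoplasmic reticulum (0.31), Rcor2 (0.31), the serpin gene Serpina9 (0.38) and the histamine receptor gene Hrh3 (0.41). Rcor2 was the gene found for both Kit and Gfra3, with means of -3.67, -1.25 and -2.22. Ccl9 means were 0.63, 2.85 and 2.13.

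Near to Ret were B3gnt5, a glycosyltransferase gene (0.12), Slc18a1, which encodes a vesicular monoamine transporter (0.14), Fam135a (0.17) and Rgs14 (0.17), where the Ret profile has a root mean square of 0.37. Slc18a1 means were 3.01, 3.72 and 2.99.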

How the data were processed

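The genes and gene lists were chosen with earlier results of these data known. Per the labels' protocols, crypts were shaken from chelated intestine, and Cy5-labelled crypt RNA was hybridised against a Cy3-labelled reference on 2-colour arrays without dye swap. The deposited scanner files (Feature Extraction 11.0.1.1, per the file headers) give raw median intensity and background intensity of both channels, quality flags and a log10 ratio made by the software. The authors also deposited log2 values; R 3.0.0 and limma 3.6.7 stand in the submitters' processing notes, and their scale (log2 of crypt over reference) and direction follow from their match to the values computed here (r of at least 0.99998).

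In R 4.3.3 with limma 3.58.1, spots with quality flags (306 to 642 of 44397 per array) were set missing, background was corrected with normexp (offset 50), and ratios were normalised by loess within arrays, control spots at weight 0. Spots of a probe were averaged. A probe was kept if its red signal was well above background on 4 or more of the 5 arrays of any group, and the brightest probe stood for a gene; 16058 features had names. The 3 groups entered 1 fit (lmFit, eBayes), two-sided, Benjamini-Hochberg adjusted over all features, threshold 0.05; p-values measure the spread between arrays. Their number limits the precision. The script was tested on simulated data. Named genes were all 8, the 5 nearest profiles of Kit, Ret and Gfra3, and up to 4 called genes of each list, largest changes first, with defining markers where a result touched them; some of these are not reported here. Alternatives covered the filter, background, normalization, probe rule, slide and replicate blocks, and each array left out.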

Additional observations from a re-analysis of the deposited data

Results flagged for a closer look

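In 4 of 24 groups of 5 arrays (8 genes in 3 groups), 1 array stood apart from the others by Dixon's ratio at its 95% level, which chance passes in about 1 of 20 groups. In the combination group, Ret was 0.31 in replicate 2 against 0.78 to 0.84 in the other 4 arrays, and Gdnf was -3.65 in the same replicate against -4.65 to -4.43. Gfra3 was 3.43 in combination replicate 5, the sole array of its slide, against 4.27 to 4.46. Gfra2 was -2.58 in N1N2 replicate 4 against -2.34 to -2.31.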

How the results depend on the processing

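Features called after N1N2 numbered 2806 (56.1% higher), 1252 with median centring (45.8% higher), 109 with the slide as a fixed block and 3 within the shared slide. Leaving out 1 array gave 1546 (without control replicate 2) to 3903 features. The count was 1553 without control replicate 5 and 1599 without N1N2 replicate 4. Passes of the 8 genes are not counted here, since this comparison chose them. For the combination against N1N2 the counts were 3998, 2335 with poor-quality spots kept and 7040 with the slide as a random block, with 2515 (without N1N2 replicate 4) to 4740 features and 1 to 3 genes on leaving out 1 array. There 1 gene passed with the scanner's log ratio, Artn, while Kit and Ret were lost; 1, Kit, also passed without the filter, with offset 16, quantile normalization, the replicate block, only the 2 groups, or without both the array scanned on another day and the combination array alone on its slide (a setting chosen after seeing the data), and 0 with poor-quality spots kept. For the combination against control the counts were 90 (58.9% higher), 138 with the scanner's log ratio (38.4% higher), 30 with median centring, 140 with quantile normalization, 49 with poor-quality spots kept (87.8% higher), 44 with the replicate block, 2916 with the random slide block, 50 with only the 2 groups and 219 without those 2 arrays; the range on leaving out 1 array was 26 (without control replicate 5 or combination replicate 3) to 348 features (without combination replicate 5) and 2 genes; leaving out any 1 control or combination array, or N1N2 replicate 4, moved this count by over 1.5 times. There 1 gene, Gfra3, passed with the scanner's log ratio and with median centring. The cause was not tested. The random slide block was fitted with a within-slide correlation of -0.18, while every combination array was on a slide without other groups. Same-numbered arrays correlated from -0.01 to 0.62 between control and N1N2 and at most 0.10 in the other comparisons, with 4 of 5 pairs over 0.1 in the first (2 of them correlated best with their own number) and 0 in the others, so not every pair passed and the numbers were not taken as pairs; the replicate block put Ret at an adjusted p of 0.0516 for its fall and changed no other call among the 8 genes.

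Small changes that crossed 0 were these. After N1N2, Kitl was 0.22 and Artn -0.069 with poor-quality spots kept, Gfra2 0.0015 within or blocked by the slide, and Kitl 0.0026 with the random slide block. For the combination against N1N2, Kitl was 0.056 and Gdnf -0.45 with the scanner's log ratio, Gdnf -0.0047 with offset 16 and -0.30 with poor-quality spots, and Gfra2 0.027 with median centring. Against control, Kitl was 0.014, Ret -0.017 and Gfra1 0.063 with the scanner's log ratio, Ret -0.028 with offset 16, Gdnf 0.17 with quantile normalization, Kitl 0.20 and Gfra1 0.081 with poor-quality spots, Artn 0.0066 with the random slide block, and Ret -0.024 and Artn 0.0076 without the 2 arrays. On leaving out 1 array, Kitl ran from -0.081 to 0.0061 after N1N2; Gdnf from -0.15 to 0.10 and Gfra2 from -0.13 to 0.064 for the combination against N1N2; and Artn from -0.039 to 0.017, Gdnf from -0.25 to 0.0016, Gfra1 from -0.083 to 0.019 and Ret from -0.058 to 0.11 against control. Signal over background limits Artn and Gdnf in crypts, Kit and Ret in the reference and, on some arrays, Gfra1 in either.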

Other observations

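In the 250 bases before the annotated start, CANNTG occurred 2 times for Artn, 3 times for Gfra1 and not for Kitl, and TGGGAA occurred 1 time for Kitl. The mean level of goblet cell genes was 5.06 to 5.30 in control, 5.78 to 6.25 in N1N2 and 5.16 to 5.97 in the combination. N1N2 replicate 1, the lowest of its group for Kit, Gfra3, Ret and Kitl, had the highest goblet mean of its group. That is 1 array, and the part of goblet cells in those values was not tested.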
